A study of Mus musculus with 26 samples.

Results

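HSP90 and its co-chaperones were followed here as 8 genes, taken by symbol from the deposited tables: the cytosolic HSP90 genes Hsp90aa1 and Hsp90ab1, and the co-chaperone genes Cdc37, Ahsa1, Stip1, Fkbp4, Chordc1 and Ptges3. All 8 were present among the 20430 symbols of the RNA tables and the 19941 symbols of the footprint tables, and all 8 passed the filter on low counts in every fit. The cells were NIH3T3, an established line of mouse embryonic fibroblasts, with no further genetic change named in the labels. PolyA-selected RNA was sequenced in 16 libraries of 8 groups. Ribosome footprints, the mRNA fragments covered by ribosomes, were sequenced in 10 libraries of 5 groups. Heat stress was given at 44 °C for 2 h or at 42 °C for 8 h, beside a heat control. Oxidative stress (H2O2) and osmotic stress (KCl) were each given for 2 h or 7 h, beside a control that both share. Temperature and time differ together between the heat groups, so they cannot be told apart. The labels give no agent concentrations and no time for the controls. Each control serves both times of a stress, so time under a stress and time in culture cannot be told apart. Heat groups were analysed as RNA only. Each group held 2 libraries. The labels call them replicates without saying whether they came from separate cultures, so p-values measure only the spread between these libraries, which may be technical.

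HSP90 is an abundant ATP-driven chaperone that takes partly folded proteins, its clients, through a cycle of closing and reopening. Stip1 (Hop) bridges HSP70 and HSP90 and hands clients over, Cdc37 brings in protein kinases, Ahsa1 (Aha1) speeds the ATPase, Ptges3 (p23) holds the closed state, Fkbp4 (FKBP52) binds the late complexes of steroid hormone receptors, and Chordc1 (morgana) is a further HSP90 partner. In heat shock the transcription factor HSF1 binds repeats of the 5-base unit nGAAn in alternating orientation, the heat shock element, and turns on chaperone genes. Hsp90aa1 is known as the strongly stress-inducible HSP90 gene of the cytosol and Hsp90ab1 as the more constitutive one.

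The start regions show which members carry this repeat. RefSeq promoter windows (assembly GRCm38.p6, 250 bases before to 50 bases after the annotated start) were held for 6 of the 8 genes. Entries for Hsp90aa1 and Hsp90ab1 were not used here. Both strands were searched for a pair of units, written GAANNTTC or TTCNNGAA, and for longer alternating runs. Chordc1 had a run of 5 units that spans its annotated start, from base -4 to base +19 and so into the start of its first exon, at chr9:18292260-18292288 on the plus strand. A further pair of units lies at +34 to +41, and the 250 bases upstream overlap 1 other annotated gene, Gm51667. The units of the run are in capitals:

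Chordc1: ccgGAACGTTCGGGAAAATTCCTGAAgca

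A run of 5 units was in 1 of 32851 windows, a run of 4 or more in 8 (0.024%) and a run of 3 or more in 198 (0.603%). Fkbp4 and Cdc37 each had a single pair of units, and either pair form was in 15.1% of all windows. The 250 bases upstream of each are shown. The pair of Fkbp4 has the form GAANNTTC and that of Cdc37 the form TTCNNGAA. Fkbp4 lies on the minus strand (chr6:128438657-128438906) with its pair at -151 to -144, and Cdc37 on the minus strand (chr9:21149935-21150184) with its pair at -170 to -163. Each of these upstream windows overlaps 1 other annotated gene, Gm10069 and Gm35977 respectively. The pairs are in capitals:

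Fkbp4: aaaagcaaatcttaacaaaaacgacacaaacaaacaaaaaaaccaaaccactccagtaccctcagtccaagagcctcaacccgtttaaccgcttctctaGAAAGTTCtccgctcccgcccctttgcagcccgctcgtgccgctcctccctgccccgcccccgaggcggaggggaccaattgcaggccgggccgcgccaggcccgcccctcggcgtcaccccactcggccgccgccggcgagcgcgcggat
Cdc37: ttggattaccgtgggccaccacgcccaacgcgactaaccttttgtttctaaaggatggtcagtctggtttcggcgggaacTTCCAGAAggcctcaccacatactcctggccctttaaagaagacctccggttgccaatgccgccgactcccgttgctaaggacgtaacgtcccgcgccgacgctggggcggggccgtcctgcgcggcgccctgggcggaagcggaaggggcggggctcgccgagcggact

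Ahsa1, Ptges3 and Stip1 held neither pair form. The 250 bases upstream searched for Ahsa1 (chr12:87266478-87266727) lie inside its gene as the RefSeq gene table places it (chr12:87266415-87273998), so the window does not cover the outermost annotated start. Stip1, on the minus strand (chr19:7040027-7040276), was the 1 member of the 6 with the letters TATAAA, in capitals here, which 13.6% of all windows hold on either strand:

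Stip1: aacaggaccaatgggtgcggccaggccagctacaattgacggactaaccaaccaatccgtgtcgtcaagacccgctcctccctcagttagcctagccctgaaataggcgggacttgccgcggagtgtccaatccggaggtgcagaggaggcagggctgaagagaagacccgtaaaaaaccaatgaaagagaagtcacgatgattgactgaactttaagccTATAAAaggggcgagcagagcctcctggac

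These matches describe letters in a window. They show no binding, and a window without a match says nothing of sites elsewhere.

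RNA libraries held 24441877 to 45244430 expected counts and footprint libraries 1460751 to 5168537, both ends of the latter being the H2O2 2 h replicates. Replicates correlated at r = 0.997 to 0.999 in RNA and 0.961 to 0.980 in footprints across genes. Of 10 fibroblast markers, all were present in every RNA library (lowest value 7.6 TPM, for Thy1). Their summed level was 12758 and 12968 TPM in the heat controls, 9216 and 9481 TPM at 44 °C, 10566 TPM in both H2O2/KCl controls, and 4827 and 4843 TPM after H2O2 for 7 h. The 11 markers of other cell types summed to between 18.8 and 57.5 TPM: 22.8 and 25.5 TPM in the H2O2/KCl controls, against 50.1 and 51.7 TPM after H2O2 for 2 h and 56.6 and 57.5 TPM after 7 h. Among them Ptprc, Cdh5 and Myod1 were at or near 0. Over the RNA libraries Cd68 ran from 5.32 to 44.7 TPM and Krt18 from 6.46 to 17.2 TPM. No other marker of this list went above 5.3 TPM. In bulk samples fewer cells of a kind and less RNA per cell cannot be told apart.

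In unstressed cells the HSP90 genes stood far above their partners. Levels are in TPM, which divides read counts by transcript length and scales each library to the same sum, and so allows genes to be compared. Hsp90ab1 was at 2437 and 2471 TPM in the heat controls, rank 31 of 20430 genes by mean level, and Hsp90aa1 at 900 and 874 TPM, rank 157. Among the co-chaperones Stip1 was highest (mean 474 TPM), followed by Ptges3 (314), Cdc37 (276), Fkbp4 (229), Ahsa1 (203) and Chordc1 (55.8). The H2O2/KCl controls gave the same order of the 8 genes, from Hsp90ab1 at a mean of 2858 TPM to Chordc1 at 41.8 TPM. Some levels differed between the heat and the H2O2/KCl controls. The means were 2454 and 2858 TPM for Hsp90ab1 and 55.8 and 41.8 TPM for Chordc1, while Cdc37 was close at 276 and 272 TPM. The HSP90 genes resemble each other in sequence and RSEM divides reads that fit both by estimated probability, so the split of reads between them carries an uncertainty that the replicates do not measure.

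At 44 °C for 2 h both HSP90 genes and 5 of the 6 co-chaperone genes rose, Hsp90aa1 by the most, and Cdc37 did not. By edgeR's quasi-likelihood test with Benjamini-Hochberg adjustment over all genes, at an adjusted p below 0.05, 7 of the 8 members were higher and 0 lower than in the heat control. Over all genes tested 35.4% were higher and 35.7% lower, so most genes moved in this comparison, and the members' median log2 fold change of 0.98 stood beside a median of 0.00 for all genes. The 8 genes together went from a mean of 4893 TPM, 0.486% and 0.492% of all TPM in the control libraries, to 12299 TPM, 1.22% and 1.24%. The fibroblast markers given above were lower at 44 °C than in the control, and their part in these changes was not tested.

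Hsp90aa1 was at 4345 and 4388 TPM at 44 °C, against 900 and 874 TPM in the controls. The libraries of each group lay close together and the groups did not overlap. How many of all genes had groups without overlap was not counted, here or in the comparisons below. The log2 fold change came to 2.24 (SE 0.0424, adjusted p = 8.06e-14), a 4.71-fold rise. Hsp90ab1 was at 5069 and 5131 TPM, against 2437 and 2471 TPM, and its log2 fold change was 0.99 (SE 0.0408, adjusted p = 9.59e-11). The inducible gene rose by the larger fold, and the constitutive gene still had the higher level.

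Fkbp4, the immunophilin co-chaperone of steroid receptor complexes, had the largest rise among the co-chaperones. Its level was 587 and 610 TPM at 44 °C against 222 and 235 TPM in the controls (log2 fold change 1.32, SE 0.0449, adjusted p = 1.44e-11). Ahsa1, the ATPase activator, was at 448 and 449 TPM against 200.4 and 205 TPM (log2 fold change 1.08, SE 0.0416). Stip1, the HSP70 to HSP90 adaptor, was at 953 and 985 TPM against 465 and 484 TPM (log2 fold change 0.97, SE 0.0424). For these 3 genes every heated library was above both control libraries.

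Chordc1, whose start carries the run of 5 units shown above, rose by less than these genes: 102 and 93.9 TPM against 55.5 and 56 TPM (log2 fold change 0.75, SE 0.0464, adjusted p = 4.77e-09). Ptges3, the p23 gene, had the smallest called rise, from 321 and 307 TPM to 467 and 426 TPM (log2 fold change 0.44, SE 0.0462, adjusted p = 9.73e-07). Cdc37, the kinase co-chaperone, was the member without a call. Its libraries were at 263 and 280.5 TPM at 44 °C and at 263 and 290 TPM in the controls, so the groups overlapped (log2 fold change -0.10, SE 0.0516, adjusted p = 0.0964). Cdc37 was called lower without a filter on low counts (adjusted p = 0.0241), without 44 °C replicate 2 (log2 fold change -0.17, adjusted p = 0.0116) and without heat control replicate 1 (log2 fold change -0.17, adjusted p = 0.0233). The fit with replicate number as a block also called it, at -0.10 (adjusted p = 0.0446).

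**Figure D1:**
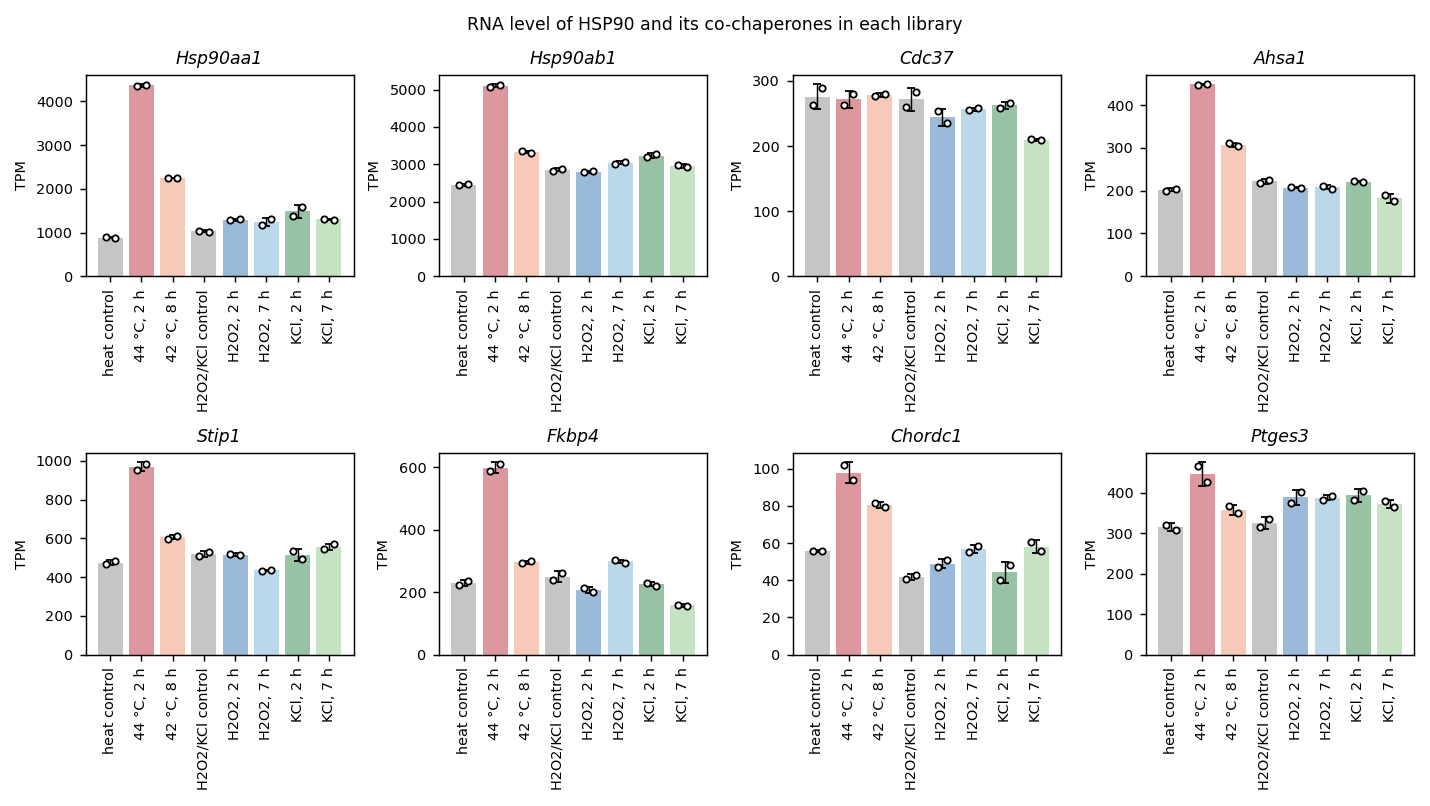
RNA level (TPM) of the 8 genes in the 8 groups of RNA libraries. Bars are group means, error bars SD, and circles the 2 libraries of a group; each axis starts at 0 and has its own scale. At 44 °C Hsp90aa1 reached 4345 and 4388 TPM from 900 and 874 TPM, while the Cdc37 libraries of the heat experiment all lay between 263 and 290 TPM.

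After 42 °C for 8 h all 8 members were called higher than the heat control, with smaller changes for most. Over all genes tested, 31.7% were higher and 31.9% lower in this comparison, and the members' median log2 fold change was 0.59 against -0.01 for all genes. Hsp90aa1 was at 2249 and 2242 TPM (log2 fold change 1.53, SE 0.0415, adjusted p = 1.52e-12) and Hsp90ab1 at 3343 and 3302 TPM (0.63, SE 0.0406). Ahsa1 (0.79), Chordc1 (0.71), Fkbp4 (0.56), Stip1 (0.54) and Ptges3 (0.41) also rose on the log2 scale, with every 42 °C library above both controls. Cdc37 was called with a log2 fold change of 0.21 (SE 0.0515, adjusted p = 0.00272) on TMM-scaled counts. On the TPM scale its libraries, at 277 and 280 TPM, lay between the controls at 263 and 290 TPM, and limma on log2(TPM + 1) gave 0.01 (adjusted p = 0.822). That scale moved the median of all genes to -0.16 in this comparison. The Cdc37 value lay above the median gene on both scales, and that distance was not tested.

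Compared directly, 42 °C for 8 h against 44 °C for 2 h gave 5 members lower and 1 higher, where 37.2% of all genes tested were lower and 37.9% higher. Fkbp4 differed most, with 292 and 299 TPM at 42 °C against 587 and 610 TPM at 44 °C (log2 difference -0.77, SE 0.0444, adjusted p = 1.47e-09). Hsp90aa1 (-0.71), Stip1 (-0.43), Hsp90ab1 (-0.37) and Ahsa1 (-0.29) were also lower at 42 °C on the log2 scale. Cdc37 was higher (0.31, SE 0.0518), a call that TPM did not give (0.04, adjusted p = 0.529). Chordc1 and Ptges3 were not called on counts (-0.03 each), and both were lower on log2(TPM + 1) (Chordc1 -0.28, adjusted p = 3.11e-04, and Ptges3 -0.32, adjusted p = 1.80e-04), where the median of all genes was -0.20.

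The balance of the HSP90 genes moved in heat. Hsp90aa1 made up 27.0% and 26.1% of the summed Hsp90aa1 and Hsp90ab1 TPM in the heat controls, 46.2% and 46.1% at 44 °C, and 40.2% and 40.4% at 42 °C. The libraries of these 3 groups did not overlap, and the distances between group means, 19.6 and 13.8 percentage points from the control, exceeded the largest SD of 0.587 points. In the H2O2/KCl controls the share was 26.9% and 25.9%. It was 31.5% and 31.7% after H2O2 for 2 h, 28.2% and 30.0% after H2O2 for 7 h, 30.3% and 32.7% after KCl for 2 h, and 30.6% and 30.8% after KCl for 7 h. All 8 of these stressed libraries were above both of their controls and below every heated library. With 2 libraries a group no test of the share was made.

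**Figure D2:**
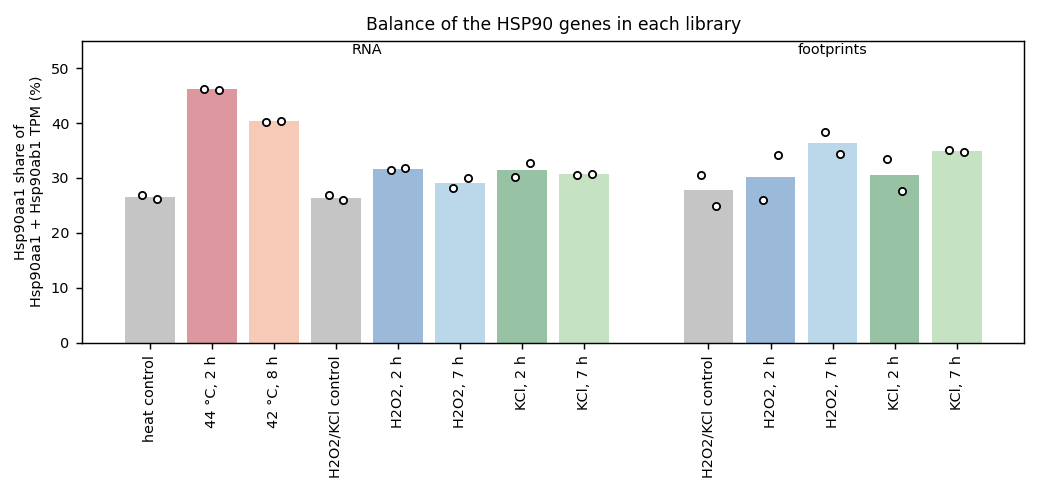
Share of Hsp90aa1 in the summed TPM of Hsp90aa1 and Hsp90ab1 (percent), for the 8 RNA groups on the left and the 5 footprint groups on the right. Bars are means and circles the 2 libraries of a group. The RNA share was 46.2% and 46.1% at 44 °C against 27.0% and 26.1% in the heat controls, and footprint replicates lay further apart.

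H2O2 gave small and mixed changes in RNA. After 2 h, 3 members were higher and 1 lower than the shared control, where 27.3% of all genes tested were higher and 26.5% lower. The summed level of the markers of other cell types given above, with Cd68 and Krt18 among them, was also higher in this group. Its part in the members' changes was not tested. Hsp90aa1 was at 1279 and 1306 TPM against 1042 and 1009 TPM (log2 fold change 0.33, SE 0.0717, adjusted p = 0.00144). Ptges3 was at 376 and 402 TPM against 315 and 335 TPM (0.27, SE 0.0611). Fkbp4 fell, from 237 and 262 TPM to 214 and 199 TPM (-0.28, SE 0.0654, adjusted p = 0.00271). The groups did not overlap for these 3 genes. They also did not overlap for Chordc1, nor for Hsp90ab1, Cdc37 and Ahsa1, which were not called. Chordc1 was called higher (0.23, SE 0.0815, adjusted p = 0.0312) with 47.2 and 50.7 TPM against 40.8 and 42.9 TPM. That call was lost on leaving out any 1 of these 4 libraries, with values of 0.17 to 0.25 and adjusted p of 0.0687 to 0.195. Hsp90ab1 and Stip1 lay within 2781 to 2886 TPM and 509 to 529 TPM in the control and 2 h libraries together, and Ahsa1, at 208 and 207 TPM against 218 and 226 TPM, was not called. Cdc37, at 254 and 235 TPM against 260 and 284 TPM, was not called (-0.15, SE 0.0626, adjusted p = 0.0631). It was called lower without a filter on low counts (adjusted p = 0.0414), on log2(TPM + 1) (adjusted p = 0.0472), without H2O2 2 h replicate 1 (-0.26, adjusted p = 0.0142) and without control replicate 1 (-0.22, adjusted p = 0.0288).

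At 7 h of H2O2, 5 members were higher and 1 lower than the control, against 39.4% and 31.1% of all genes tested. The share of genes called was large in this group, and the fibroblast markers given above were at less than their control level; the part of that shift in the members' changes was not tested. Chordc1 was at 55.2 and 58.4 TPM against 40.8 and 42.9 TPM (log2 fold change 0.52, SE 0.0813, adjusted p = 4.99e-05). The unstressed heat controls, of the separate heat experiment, were at 55.5 and 56 TPM for this gene. Hsp90aa1 (0.36), Fkbp4 (0.34) and Ptges3 (0.33) rose by less on the log2 scale. Hsp90ab1 was called at 0.17 (adjusted p = 0.0142) and lost the call on log2(TPM + 1) (0.09, adjusted p = 0.216) and without either H2O2 7 h library (0.10 and 0.15, adjusted p = 0.247 and 0.0738) or control replicate 1 (0.16, adjusted p = 0.0566). With only the groups compared in the edgeR fit, Hsp90ab1 was also not called (0.11, adjusted p = 0.0967). Stip1 was lower, at 433 and 436 TPM against 509 and 529 TPM (-0.18, SE 0.0599, adjusted p = 0.0176). The Stip1 call did not hold without H2O2 7 h replicate 2 (-0.18, adjusted p = 0.0624) or control replicate 2 (-0.16, adjusted p = 0.0818). Cdc37 and Ahsa1 were not called at 7 h.

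Between 2 h and 7 h of H2O2, Fkbp4 changed direction. It was at 214 and 199 TPM at 2 h and at 302 and 295 TPM at 7 h, with the control between them, and the difference of 7 h from 2 h was 0.61 on the log2 scale (SE 0.0657, adjusted p = 1.13e-06). Of the 8 members 3 were higher and 1 lower at 7 h than at 2 h, where 37.3% of all genes tested were higher and 36.1% lower. Without H2O2 2 h replicate 1 the count of members called was 1, Fkbp4 alone.

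KCl raised both HSP90 genes. After 2 h, 3 members were higher and 0 lower than the control, where 27.2% of all genes tested were higher and 27.0% lower. Hsp90aa1 was at 1381 and 1588 TPM against 1042 and 1009 TPM (log2 fold change 0.63, SE 0.0719, adjusted p = 5.34e-06). Hsp90ab1 was at 3182 and 3271 TPM against 2831 and 2886 TPM (0.27, SE 0.0548, adjusted p = 8.45e-04). Ptges3 was at 383 and 405 TPM against 315 and 335 TPM (0.37, SE 0.0612). All KCl libraries of these genes were above both controls. Chordc1 was at 40.3 and 48.0 TPM against 40.8 and 42.9 TPM, so its groups overlapped (0.17, SE 0.0829, adjusted p = 0.092). Without KCl 2 h replicate 1 Chordc1 was called, at 0.29 (adjusted p = 0.00915). Cdc37, Ahsa1, Stip1 and Fkbp4 were not called after 2 h of KCl. Cdc37 was at 259 and 266 TPM against 260 and 284 TPM in the control libraries, and Ahsa1 at 222 and 221 TPM against 218 and 226 TPM. Stip1 was at 537 and 492 TPM against 509 and 529 TPM, and Fkbp4 at 230 and 221 TPM against 237 and 262 TPM.

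After 7 h of KCl the members split. All 8 were called, 5 higher and 3 lower, where 37.2% of all genes tested were higher and 31.6% lower. Chordc1 rose most, to 60.6 and 55.7 TPM (log2 fold change 0.58, SE 0.0817, adjusted p = 2.10e-05). The unstressed heat controls were at 55.5 and 56 TPM for this gene. Next came Hsp90aa1 at 1317 and 1296 TPM (0.45, SE 0.0718), Ptges3 (0.30), Stip1 (0.20) and Hsp90ab1 (0.15). Fkbp4 fell from 237 and 262 TPM to 160 and 154 TPM (-0.57, SE 0.066, adjusted p = 3.25e-06). Cdc37 fell to 211 and 209 TPM from 260 and 284 TPM (-0.29, SE 0.063, adjusted p = 8.84e-04), its lowest level in any RNA group. Ahsa1 was lower at 189 and 175 TPM against 218 and 226 TPM (-0.18, SE 0.0598, adjusted p = 0.0155).

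The smaller of these calls at 7 h rested on single libraries, on the scale or on the groups fitted together. With only the groups compared in the edgeR fit, Hsp90ab1 was not called (0.09, adjusted p = 0.208). Hsp90ab1 lost its call on log2(TPM + 1) (0.05, adjusted p = 0.529), without a filter on low counts, and without control replicate 1, control replicate 2 or KCl 7 h replicate 1 (adjusted p of 0.0914, 0.0671 and 0.149). Stip1 lost its call on log2(TPM + 1) (0.10, adjusted p = 0.129) and without control replicate 1 (0.18, adjusted p = 0.0564). Ahsa1 lost its call without control replicate 2 (-0.16, adjusted p = 0.0753) or KCl 7 h replicate 2 (-0.11, adjusted p = 0.176). Between 2 h and 7 h of KCl 1 member was higher, Chordc1 (0.40), and 4 were lower, Fkbp4 (-0.51), Cdc37 (-0.32), Ahsa1 (-0.28) and Hsp90aa1 (-0.18), where 35.1% of all genes tested were higher and 33.7% lower. The Hsp90aa1 call was lost without KCl 2 h replicate 2 (-0.08) and without either KCl 7 h library (-0.20 and -0.15). It was also lost on log2(TPM + 1) (-0.18, limma adjusted p = 0.0564) and with only the groups compared (-0.20, edgeR adjusted p = 0.0516).

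**Figure D3:**
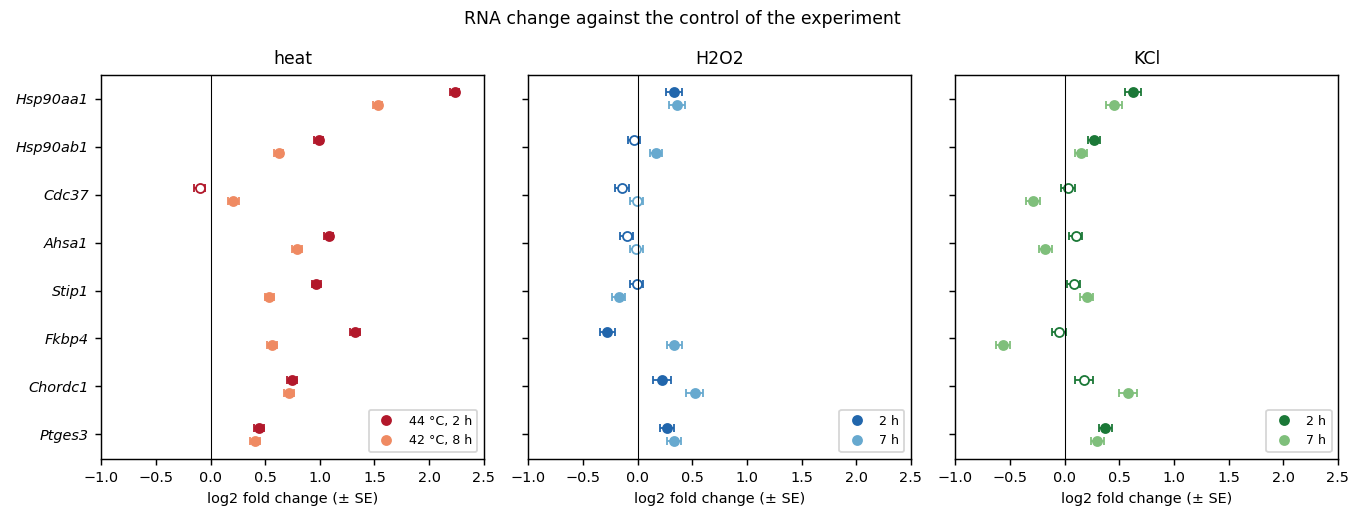
RNA log2 fold change of each gene against the control of its experiment, from edgeR, with bars of 1 SE; filled points passed an adjusted p below 0.05 and open points did not. Changes reached 2.24 in heat, and in H2O2 and KCl they ran from -0.57 to 0.63. The Fkbp4 points lie on opposite sides of 0 in heat and after 7 h of KCl.

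Fkbp4 was the member that most separated H2O2 from KCl at 7 h. It was at 302 and 295 TPM after H2O2 and at 160 and 154 TPM after KCl, and the log2 difference of H2O2 from KCl was 0.90 (SE 0.0664, adjusted p = 1.32e-08). Cdc37 (0.28) and Ahsa1 (0.17) were also higher after H2O2, and Stip1 was lower (-0.38, SE 0.0601, adjusted p = 4.69e-05). These 3 higher and 1 lower stood against 41.0% and 37.4% of all genes tested. The Ahsa1 call was lost without H2O2 7 h replicate 1 (0.13, adjusted p = 0.166), without KCl 7 h replicate 2 (0.10, adjusted p = 0.224) and with DESeq2 (0.14, adjusted p = 0.0557). At 2 h, 5 members were lower after H2O2 than after KCl and 0 higher, where 24.2% of all genes tested were lower and 27.0% higher. Hsp90ab1 differed by -0.30 (SE 0.0548, adjusted p = 3.79e-04), Hsp90aa1 by -0.29, Fkbp4 by -0.22, Ahsa1 by -0.20 and Cdc37 by -0.18 on the log2 scale. Without H2O2 2 h replicate 2 the calls at 2 h were 2 of 8, and on log2(TPM + 1) 1 of 8, Hsp90ab1.

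The heat response was larger than the response to the other agents in most members. The log2 change at 44 °C for 2 h was compared with that of H2O2 for 2 h, each against its own control, in a fit over all 16 RNA libraries. It was larger in 6 members and smaller in 0, where 24.3% of all genes tested had the larger value in heat and 33.7% the smaller. The difference was 1.86 for Hsp90aa1 (SE 0.0874, adjusted p = 1.55e-11), 1.56 for Fkbp4, 1.14 for Ahsa1, 0.98 for Hsp90ab1, 0.93 for Stip1 and 0.48 for Chordc1. Against KCl for 2 h the same 6 members were called and 0 were smaller (27.6% and 34.4% of all genes tested), with 1.57 for Hsp90aa1 (SE 0.0872) and 0.69 for Hsp90ab1. The median over all genes was -0.11 and -0.08 in these comparisons. Ptges3 differed from its H2O2 response by 0.13 (SE 0.0788, adjusted p = 0.168). It was called, at 0.25 each, without H2O2/KCl control replicate 1, 44 °C replicate 2 or heat control replicate 1. Heat and the other agents were run as separate experiments, so a difference between experiments that the controls do not take up was not tested.

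Ribosome footprints were measured for H2O2 and KCl. In controls Hsp90ab1 was at 2244 and 2679 footprint TPM and Hsp90aa1 at 987 and 891. Ptges3 was next, at 928 and 696 footprint TPM, ahead of Stip1 at 427 and 409, whereas in RNA Stip1 was above Ptges3. Chordc1 was lowest, at 64.5 and 35.9. Footprints were measured less precisely than RNA: the SE of the log2 fold changes was 0.163 to 0.445, against 0.0548 to 0.0829 for RNA of the same experiment.

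No member's footprints were called in any of the 4 comparisons, by edgeR or by DESeq2. Over all genes tested 1.91% were called after H2O2 for 2 h, 27.7% after H2O2 for 7 h, 6.86% after KCl for 2 h and 20.4% after KCl for 7 h. At an unadjusted p below 0.05 the members counted 0, 2, 0 and 1 in the same order. In H2O2 at 7 h the 2 were Ahsa1, at 139 and 185 footprint TPM against 213 and 215 (log2 fold change -0.54, SE 0.201, adjusted p = 0.0636), and Hsp90ab1, at 1777 and 2072 against 2244 and 2679 (-0.47, SE 0.2, adjusted p = 0.101). Both H2O2 libraries were below both controls for these genes. Ahsa1 was called in the fit with the replicate block (-0.55, adjusted p = 0.0333) and without footprint H2O2 7 h replicate 2 (-0.84, adjusted p = 0.0365). In KCl at 7 h the 1 member was Hsp90aa1, at 1227 and 1372 footprint TPM against 987 and 891 (0.50, SE 0.199, adjusted p = 0.0899). After 2 h of KCl the approximate 95% interval of the Hsp90aa1 change, -0.03 to 0.75 from its SE by a normal distribution, still held the RNA change of 0.63.

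Within the H2O2 2 h group the footprint libraries differed in depth, 1460751 and 5168537 expected counts, and in several members. Hsp90aa1 was at 715 and 1041 footprint TPM, Chordc1 at 25.0 and 65.1, and Ptges3 at 431 and 903, the shallower library being the lower each time. Hsp90ab1 (2034 and 2001), Cdc37 (178 and 183) and Ahsa1 (222 and 213) were close. The part of depth in this difference was not tested.

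Translational efficiency, the change in footprints beyond that in RNA, was fitted as an interaction over the 20 libraries of the H2O2/KCl experiment. After 7 h of H2O2 1 member, Hsp90ab1, was lower (log2 change -0.63, SE 0.194, adjusted p = 0.0492), where 9.27% of all genes tested were called and 4.57% were lower. All 8 estimates were below 0 in this comparison, from -0.80 for Chordc1 (SE 0.361, adjusted p = 0.182) to -0.10 for Cdc37, with a median of -0.44 against 0.06 over all genes. Ahsa1 (-0.52, adjusted p = 0.116) and Fkbp4 (-0.38, adjusted p = 0.11) were not called by edgeR, and DESeq2 called Fkbp4 (-0.37, adjusted p = 0.00787) beside Hsp90ab1. After 7 h of KCl Fkbp4 was higher (0.58, SE 0.145, adjusted p = 0.0262), where 5.57% of all genes tested were called and 1.69% were higher. Its RNA had fallen while its footprints, at 195 and 184 TPM, lay beside the controls at 199 and 192. Cdc37 had the next value after KCl for 7 h (0.44, adjusted p = 0.151), and DESeq2 called it (0.43, adjusted p = 0.0404).

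Both efficiency calls were close to the threshold. Hsp90ab1 lost its call without H2O2 7 h replicate 1 or 2 of the RNA, control replicate 1 or 2 of the RNA, footprint H2O2 7 h replicate 1 or footprint control replicate 2, with values of -0.62 to -0.44 and adjusted p of 0.15 to 0.214. Fkbp4 lost its call without any 1 of the RNA control or KCl 7 h libraries, without either footprint control library and without footprint KCl 7 h replicate 1, with values of 0.53 to 0.65 and adjusted p of 0.0540 to 0.114. At 2 h neither agent gave a call, where 11.4% (H2O2) and 12.8% (KCl) of all genes tested were called. DESeq2 also gave 0 and 0, and 0 and 0 members had an unadjusted p below 0.05. Without footprint H2O2 2 h replicate 2, which leaves the shallower library alone in its group, 3 members were called lower after H2O2 for 2 h: Hsp90aa1 (-0.71), Ptges3 (-1.17) and Chordc1 (-1.22). With both libraries the value of Hsp90aa1 was -0.40 (SE 0.208, adjusted p = 0.228).

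**Figure D4:**
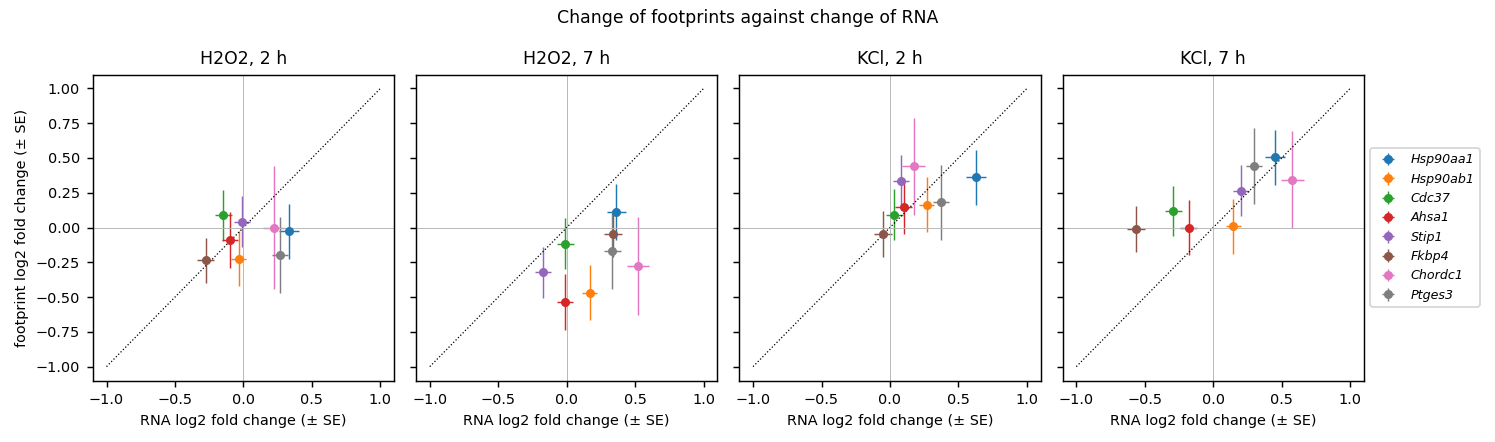
Footprint log2 fold change (vertical axis) against RNA log2 fold change (horizontal axis) of the 8 genes in H2O2 and KCl, each from edgeR with bars of 1 SE. On the dotted line both changes are equal. After 7 h of H2O2 all points lie below the line, and after 7 h of KCl Fkbp4 lies left of it, with an RNA change of -0.57 and a footprint change of -0.01.

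The footprint share of Hsp90aa1 in the HSP90 pair was 30.5% and 24.9% in the controls, 38.4% and 34.4% after H2O2 for 7 h, and 35.1% and 34.6% after KCl for 7 h. At 7 h of either agent both libraries were above both controls. At 2 h the libraries overlapped the controls, with 26% and 34.2% after H2O2 and 33.4% and 27.6% after KCl. The shift after 7 h of H2O2 was 8.62 percentage points in footprints and 2.70 in RNA, and the larger SD of the footprint groups was 3.96 points.

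Other parts of the HSP90 system were counted by list. A list of 27 further genes, among them organelle HSP90s, other TPR and p23-like co-chaperones and the HSP70 gene Hspa8, had 11 higher and 10 lower at 44 °C (35.4% and 35.7% of all genes tested) with a median log2 change of 0.06. At 42 °C 15 were higher and 2 lower (31.7% and 31.9% of all genes tested), with a median of 0.15. Ahsa2, a relative of Ahsa1 (0.89), and St13 (Hip), an HSP70 co-chaperone (0.79), rose most at 44 °C. Nudcd3, which has a p23-like domain (-1.53), and Aarsd1 (-0.91) fell most. At 42 °C Hspa8, the constitutive cytosolic HSP70, rose by 0.88 and Ppid, the cyclophilin co-chaperone, by 0.78. In H2O2 the list had 5 higher and 8 lower at 2 h (27.3% and 26.5% of all genes tested) and 10 higher and 9 lower at 7 h (39.4% and 31.1%). In KCl it had 7 higher and 5 lower at 2 h (27.2% and 27.0%) and 7 higher and 12 lower at 7 h (37.2% and 31.6%). The FNIP co-chaperone gene Fnip1 was among the largest rises at both KCl times (0.98 and 1.22), and Fkbp5, a relative of Fkbp4, was among the largest falls at 7 h of KCl (-0.85). In footprints Hspa8 was lower after H2O2 for 7 h (-0.99, adjusted p = 0.00139) and higher after KCl for 2 h (0.73, adjusted p = 0.032).

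Of the HSF genes, Hsf1, the master regulator of the heat shock response, was at a mean of 77.5 ± 1.99 TPM (SD, n = 2) in the heat control and 114 ± 6.26 TPM at 44 °C. The log2 change of Hsf1 was 0.50 (SE 0.0507, adjusted p = 6.61e-07) at 44 °C and 0.38 (SE 0.0514) at 42 °C. Hsf2 rose by 0.41 at 44 °C and by 0.42 at 42 °C. After KCl, Hsf2 rose by 1.06 at 2 h and 0.84 at 7 h, with footprints up by 1.26 and 1.48, while Hsf1 was not called at either time. After H2O2 for 7 h Hsf2 (-0.67, adjusted p = 1.58e-06) and Hsf1 (-0.19, adjusted p = 0.0126) were lower.

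Genes for 23 HSP90 clients (kinases, hormone and xenobiotic receptors and others) had 7 higher and 11 lower at 44 °C (35.4% and 35.7% of all genes tested), with a median of -0.09, and 9 higher and 6 lower at 42 °C (31.7% and 31.9%). The aryl hydrocarbon receptor gene Ahr (-0.65) and the mitotic kinase gene Plk1 (-0.54) fell most at 44 °C. After H2O2 for 7 h the client list had 9 higher and 7 lower (39.4% and 31.1% of all genes tested), led by Egfr (2.45), Ulk1 (2.32) and, downward, Plk1 (-3.15). After KCl for 7 h it had 12 higher and 4 lower (37.2% and 31.6%), led by the hypoxia factor gene Hif1a (1.85) and by Egfr (1.26). The kinase genes Araf (-0.89) and Cdk4 (-0.57) fell most. In translational efficiency 0 clients were higher and 9 lower after KCl for 2 h, where 3.58% and 9.18% of all genes tested were called, led by Akt1 (-1.65) and Igf1r (-1.56). The counts were 0 higher and 7 lower after H2O2 for 2 h, 0 higher and 5 lower after KCl for 7 h, and 1 higher, Ulk1 (1.35), and 0 lower after H2O2 for 7 h, where 11.4%, 5.57% and 9.27% of all genes tested were called in either direction.

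Genes were compared by mean log2(TPM + 1) across the 8 RNA groups, which share 2 controls and 2 experiments. Of 8751 genes with a mean of at least 10 TPM, the members were left out of the ranking. The non-members most like Hsp90aa1 were Hspb1 (r = 0.94), Atad5 (0.93) and Mtrf1l (0.92). Hspb1, the small heat shock protein HSP27, went from 127 ± 14.4 TPM in the heat control to 4890 ± 288 TPM at 44 °C and 1744 ± 67.9 TPM at 42 °C (SD, n = 2), and stayed between 111 and 142 TPM in the means of the H2O2/KCl experiment. Closest to Hsp90ab1 among the non-members were Chchd2 (r = 0.94), Brca1 (0.92) and Grsf1 (0.92). Closest to Cdc37 were Fam149b, Hibadh and Cmc2 (0.97 each), which all had their lowest group mean after KCl for 7 h, at 14.3, 20.9 and 10.8 TPM. Among the members, Hsp90aa1 and Hsp90ab1 correlated at r = 0.96 over the 8 groups, and Cdc37 correlated with Hsp90aa1 at 0.21 and with Fkbp4 at 0.60. These are descriptions over group means.

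The deposited tables also give calls of transcription past gene ends. A DoG, a downstream-of-gene transcript, was scored as present or absent in every RNA library for 6399 neighbouring gene pairs. A library held 1243 to 2286 calls, 19.4% to 35.7% of the pairs. The calls are the authors' and carry no error. Hsp90aa1, with Dio3os as its downstream neighbour, was called in all 16 libraries, controls included. Chordc1, upstream of Ubtfl1, was called in 14 of 16. How many other pairs were called in as many libraries was not counted. Hsp90ab1 (upstream of Tmem151b) and Ptges3 (upstream of Atp5b) were each called in both 42 °C libraries and in no other library, a pattern that 22 of the 6399 pairs showed (0.344%). Stip1, upstream of Fermt3, was called in both 42 °C libraries and in 1 library of H2O2 for 2 h. The pairs of these 3 genes were among 201 of 6399 (3.14%) called in both 42 °C libraries and neither heat control. At 44 °C 0 of 2 libraries had the call for any of these 3 genes. Their RNA was higher at 44 °C than at 42 °C by TPM. On counts Ptges3 was not called between these groups (log2 difference -0.03, edgeR adjusted p = 0.545). The part of RNA level in the calls was not tested.

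Cdc37, upstream of Tyk2, was called in both libraries of H2O2 2 h, H2O2 7 h and KCl 2 h. It was also called in 1 library of KCl 7 h and in 1 heat control, and in neither 44 °C nor 42 °C. Over all pairs, 20.7% (H2O2 2 h), 11.1% (H2O2 7 h) and 19.0% (KCl 2 h) were called in both libraries. At 44 °C and 42 °C the share called in both libraries was 19.5% and 17.6%. Single libraries had calls for 32.7% of the pairs at 44 °C and for 32.0% and 30.5% at 42 °C. How many pairs had no call in any heated library, as Cdc37 did, was not counted. Fkbp4, upstream of Itfg2, was called in 3 single libraries of 3 groups. Ahsa1 was upstream in no listed pair. A read-in call, which marks such transcription reaching into the next gene, was made for 0 of the 13 pairs with a member, in any library. How often other pairs had a read-in call was not counted, so this 0 gives no contrast with them. Of the downstream neighbours, Dio3os was at most 0.14 TPM, Ubtfl1 was listed at 0 in every RNA library and Tmem151b was at most 0.65 TPM, while Atp5b lay between 1555 and 1813 TPM. Fermt3, downstream of Stip1, was at 0.44 and 0.5 TPM in the heat controls, 1.62 and 1.89 at 42 °C, 2.11 and 2.45 at 44 °C and 3.63 and 2.8 after H2O2 for 2 h. Tyk2, downstream of Cdc37, ran from 8.25 to 19.7 TPM and Itfg2, downstream of Fkbp4, from 19 to 31 TPM over the RNA libraries.

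**Figure D5:**
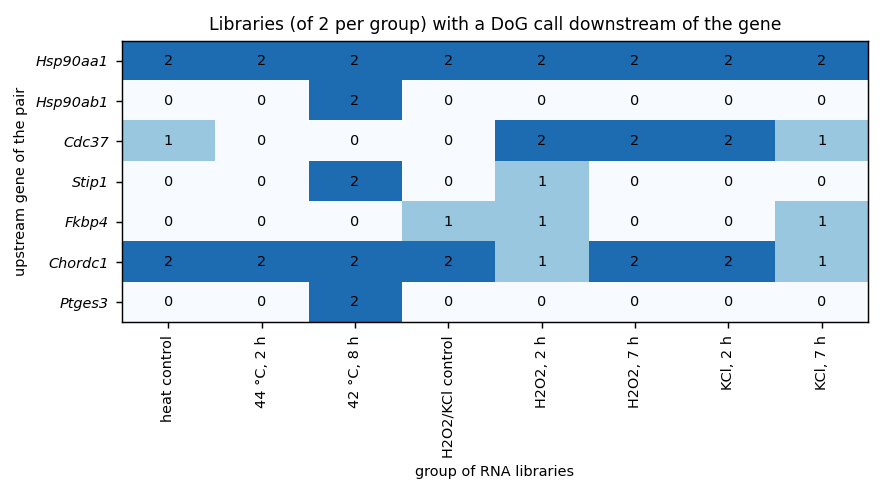
Number of libraries, of 2 per group, with a DoG call downstream of each member (rows) in the 8 groups of RNA libraries (columns). Hsp90aa1 has 2 in every group. Hsp90ab1 and Ptges3 have 2 at 42 °C for 8 h and 0 elsewhere, and Cdc37 has 0 in both heat stress groups. Of all 6399 pairs, 19.5% were called in both libraries at 44 °C and 17.6% at 42 °C. How many had no call in either heat stress group was not counted.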

How the data were processed

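The authors deposited expected counts per gene and TPM values for the same libraries. STAR, RSEM, Bowtie and the mouse build mm10 are named in the submitters' processing notes, without versions or roles. RNA libraries were made with a commercial NEB kit, per the labels' protocols. The expected counts were whole numbers in the deposited tables and needed no rounding. The authors also deposited other values, DoG and read-in calls (true or false) per gene pair and library. The footprint tables held 12 more columns whose names fit no labelled sample; these were left out. The members and gene lists were chosen with earlier results of these data known.

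Counts were tested with edgeR 4.0.16 (R 4.3.3): TMM normalization, filterByExpr, quasi-likelihood F test, and p-values adjusted over every tested gene (Benjamini-Hochberg), threshold 0.05. Fits took all groups of an experiment together (6 heat, 10 H2O2/KCl RNA and 10 footprint libraries); efficiency was the interaction of library kind and group over 20 libraries. The test was tried on simulated data. DESeq2 1.42.0, limma 3.58.1 on log2(TPM + 1) or log2(TPM + 0.1), RLE size factors, no filter, only the compared groups, a replicate block, a fold threshold and leaving out each library were alternatives. All 8 members were tested in each comparison, and those without a call are given by level or by count where their fold change is not printed; of the other lists, the text names those with the largest called changes, at most 2 in each direction against a control, and Hsf1. Genes alike were the 3 non-members with the highest r. The SE was the absolute log2 fold change divided by the square root of the F statistic. Depth limits precision: for members the SE was 0.0406 to 0.0829 in RNA comparisons with a control and 0.163 to 0.445 in footprints. The 0.445 was Chordc1 after H2O2 for 2 h, a ratio of small values at a change of -2.06e-04. In the other footprint comparisons Chordc1 had 0.349 to 0.353.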

Additional observations from a re-analysis of the deposited data

Results flagged for a closer look

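In H2O2/KCl, 9 member changes differed between the time points of an agent by a direct test of 7 h against 2 h (edgeR, adjusted over all genes). After H2O2 they were Fkbp4 (0.61, adjusted p = 1.13e-06), Chordc1 (0.30, adjusted p = 0.00479), Hsp90ab1 (0.20, adjusted p = 0.00442) and Stip1 (-0.17, adjusted p = 0.022). After KCl they were Fkbp4 (-0.51, adjusted p = 9.23e-06), Chordc1 (0.40, adjusted p = 6.16e-04), Cdc37 (-0.32, adjusted p = 3.98e-04), Ahsa1 (-0.28, adjusted p = 9.18e-04) and Hsp90aa1 (-0.18, adjusted p = 0.0415). Fkbp4 was thus higher at 7 h in H2O2 and lower at 7 h in KCl, both libraries of each time lying apart.

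Of these, Stip1 in H2O2 lost its call on leaving out any 1 of the 4 libraries compared (-0.18 to -0.17, adjusted p of 0.056 to 0.0775). Hsp90ab1 and Chordc1 in H2O2 lost theirs without H2O2 2 h replicate 1 (0.18 and 0.23, adjusted p = 0.0516 and 0.0517). The Hsp90ab1 call in H2O2 was also lost on log2(TPM + 1) and log2(TPM + 0.1) (0.12 each, adjusted p = 0.092 and 0.0956).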

How the results depend on the processing

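Of 74 member changes called across the 21 comparisons, 55 kept their call and 19 lost it in at least 1 alternative, and 0 changed sign. Of 94 uncalled ones, 41 changed sign in at least 1 alternative. Among the uncalled values given above, the sign changed for Fkbp4 footprints after 7 h of KCl, at 0.00602 with DESeq2, 0.00616 with RLE size factors and -0.0512 to 0.0293 without 1 library. It also changed without 1 library for Chordc1 (-0.0684 to 0.00752) and Ptges3 (-0.0751 to 0.0154) at 42 °C against 44 °C, and for Chordc1 efficiency after 2 h of H2O2 (-1.22 to 0.29). At a log2 fold change of 1 or more in either direction, the members called were 3 at 44 °C, 1 at 42 °C, 3 and 2 in the response at 44 °C minus that to H2O2 and KCl, and 0 in the other RNA comparisons and in efficiency after 7 h of either agent. H2O2 against KCl at 2 h gave 1 with limma on log2(TPM + 1) or log2(TPM + 0.1), and 2 to 5 without 1 library. H2O2 at 7 h against 2 h gave 1 to 3 without 1 library. Footprints after 7 h of H2O2 gave 1 with the replicate block and 0 to 1 without 1 library. Efficiency gave 2 and 2 with DESeq2 after 7 h of H2O2 and KCl, 0 with RLE size factors after H2O2 and 0 without a filter after KCl. Without 1 library it gave 0 to 2 after 7 h of H2O2 or of KCl and 0 to 3 after 2 h of H2O2.

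The pairs of same-numbered libraries had correlated deviations of 0.04 to 0.11 (heat), -0.13 to 0.17 (RNA, H2O2/KCl) and -0.40 to 0.44 (footprints), so the numbers were not taken to pair the libraries. The replicate block left the other counts of members called within 1.5 times. Summing counts over older symbols gave no value, since the 1 older symbol present is another gene's current symbol. On log2(TPM + 0.1) the median of all genes at 42 °C was -0.20. Where a library was left out, the lone one of its group was assumed to vary like the other groups. Footprint depth limits what could be called.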
